A study of Mus musculus with 7 samples.

Results

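The 28 genes described here mark cells that are not endocrine: 8 mark endothelial cells, 10 leukocytes, 8 mesenchymal cells (fibroblasts, stellate cells and pericytes) and 2 Schwann cells. They were taken from a table of 55536 genes by symbol, and all 28 were found and had at least 1 count. They serve as a measure of RNA from other cells in mouse pancreatic alpha cells, the source of glucagon, sorted from islets. The 4 control libraries came from mice of genotype Nkx2.2+/+;Gcg-iCre;Rosa26:tdTomato and the 3 knockout (KO) libraries from Nkx2.2fl/fl;Gcg-iCre;Rosa26:tdTomato mice, so that controls and KO share the Cre recombinase and the red reporter and differ in the Nkx2-2 alleles. By its name the Cre is driven by the glucagon gene, and islet cells were collected by red fluorescence alone, so any islet cell in which Cre was active, and any cell carried along in the sort, could enter a library. The mice are given as C57B1/6J, with no age. RNA was depleted of ribosomal RNA, and the labels also call it polyA RNA. For 1 KO library the number in the table matches no KO sample label, and it is called unnumbered. Values are listed in the order of controls 1, 2, 3 and 4 and of KO 1, KO 2 and the unnumbered library. Nothing in the labels says that libraries came from separate animals, so p-values measure the spread between these samples, which may be technical.

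Pancreatic islets are dense with fenestrated capillaries, hold resident macrophages and thin sheets of fibrillar collagen, and are wrapped by Schwann cells and reached by nerve fibres. Endocrine cells keep the capillaries in place by secreting vascular endothelial growth factor A (Vegfa), which acts on the endothelial receptors Kdr and Flt1. Genes of this kind are commonly read as a sign of carried-over cells, although a single marker can also be expressed by endocrine cells.

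Marker RNA was present in every library and was scarce. The 28 genes together took 56.0, 62.9, 112 and 66.9 counts per 1000000 counts (CPM) in the controls and 90.3, 122 and 85.8 in KO, while the glucagon gene Gcg alone took 114000 to 135000 in controls and 58700 to 73900 in KO. The lowest KO library lay below control 3, so the groups overlapped. Per length, 27 of the 28 genes lay below the percentile 60 of 22028 protein-coding genes, and the median of the 28 was 0.171 CPM per kilobase of exon (percentile 41.3). The exception was C1qa, at percentile 90.7. At least 100 counts in every library were found for 5 of the 28 genes, 15 stayed under 100 counts in every library, and 7 had 0 counts in at least 1 library, where the floor of 3 counts is 0.0414 to 0.0660 CPM.

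The libraries held 45483504 to 72456557 counts. Nkx2-2 itself had normalized counts of 8596, 11199, 12297 and 9782 in the controls and of 7758, 7534 and 7694 in the KO libraries, a KO level of 73.2% of the control level (DESeq2 adjusted p 0.0218, edgeR adjusted p 0.152), and DESeq2 called it in 2 of 7 fits with 1 library left out. Counts over the whole gene do not separate its deleted part from the rest. Control 4 stood apart on genes that overlap another gene. For 22 genes whose exons lie to at least 90% beneath those of a gene on the other strand, its median log2 deviation from the other 6 libraries was -7.66, against -0.01 to 0.11 for each of those. At least 1 count was found for 31024 genes in control 4 and for 23150 to 25873 in the other 6 libraries. Of the 28 markers, 26 have no exon under an opposite-strand exon. The exceptions are Csf1r, with 15.1% of its exon length covered, and Egfl7, with 3.41%. This covers annotated exons only, so whether the counts of the 26 in control 4 were affected was not tested. In libraries made from many cells, a smaller number of cells of a type and less RNA in each of them cannot be told apart. Summed markers of other pancreatic cells also differed between libraries: 10 acinar genes took 4.47 to 238 CPM in controls and 25.2 to 137 in KO, 8 beta cell genes took 6430 to 12000 and 10900 to 18100, 4 delta cell genes took 3750 to 6940 and 6400 to 11800, and 8 duct genes took 299 to 387 and 412 to 460. Their part in the marker results was not tested.

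**Figure D1:**
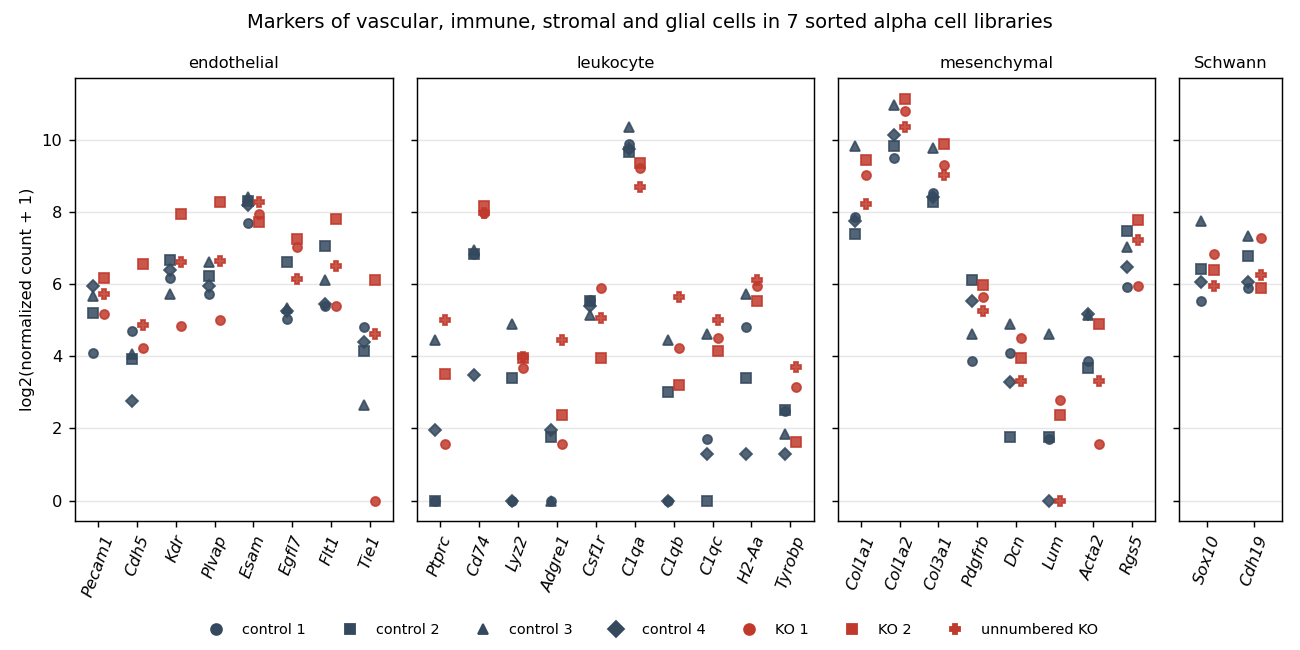
Normalized counts of the 28 markers on a log2(value + 1) scale (y axis), by gene (x axis) and cell class (panels), with 1 symbol per library, controls in dark blue and KO in red. C1qa and the collagen genes Col1a1, Col1a2 and Col3a1 stand above most other markers, several leukocyte genes reach 0, and KO 2 is the highest symbol for most endothelial genes.

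The comparison of KO with control libraries asked whether non-endocrine RNA differed between the genotypes. Of the 28 markers, 1 was past the threshold of an adjusted p under 0.05 in DESeq2 and 0 were in edgeR's quasi-likelihood test, against 4.51% and 1.05% of all genes tested. DESeq2 gave an adjusted p for 20 of the 28 and edgeR for 25. The gene called was C1qa, which fell, as 2.27% of all genes did in DESeq2. At an unadjusted p under 0.05 there were 4 markers in DESeq2 and 3 in edgeR, where 6.89% and 10.5% of all genes tested lay under it. These shares of all genes are also the background for the further gene lists below. The median log2 fold change of the 28 was 0.58, with 21 positive and 7 negative values, and that of the 17571 genes with an adjusted p was 0.01, of which 51.8% were positive. Over the 20 markers with an adjusted p, the set that matches these genes, the median was 0.49. Among the 20 markers with an adjusted p, the libraries of the groups did not overlap for Cd74, with KO above, and C1qa, with KO below. Of all genes with an adjusted p, 12.0% did not overlap, so the markers' count is near the background.

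**Figure D2:**
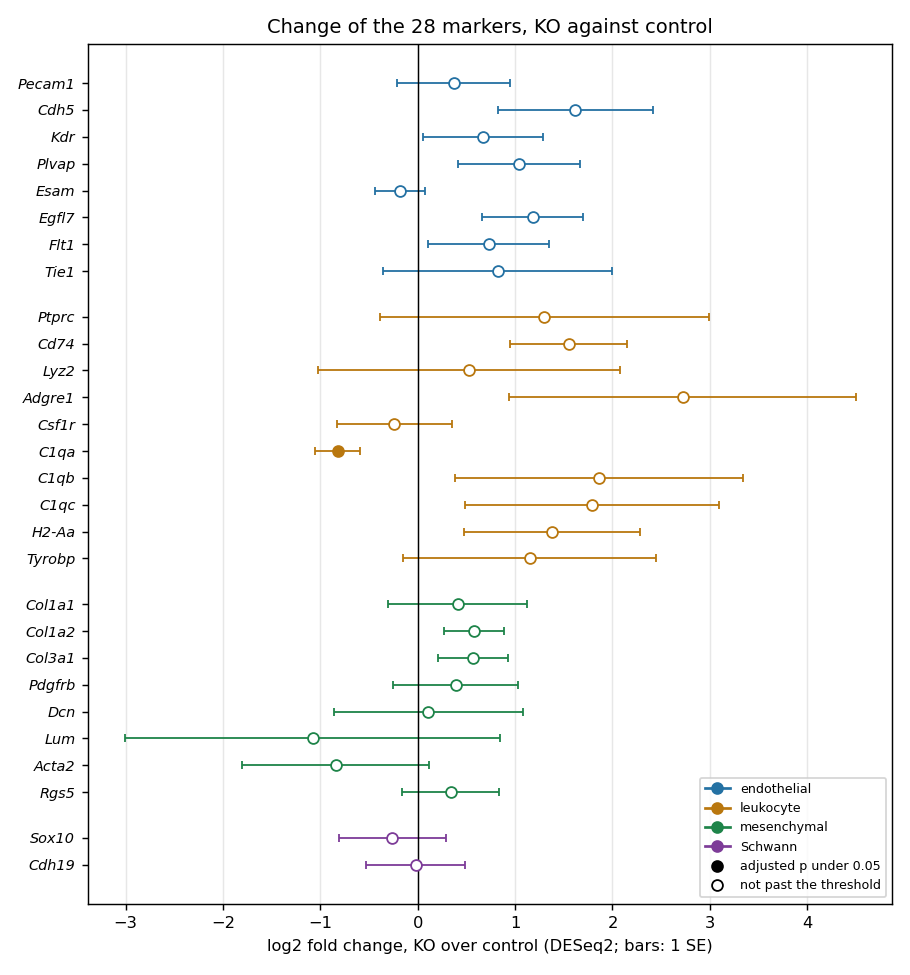
Log2 fold change of KO over control from DESeq2 (x axis) for each of the 28 markers (y axis), with bars of 1 SE and colours for the cell class; filled points are past an adjusted p of 0.05. C1qa, at -0.82, is the only filled point, and the bars of sparse genes such as Adgre1, Lum and Ptprc span more than 3 log2 units.

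Endothelial marker RNA was highest in 1 KO library, KO 2, and the groups overlapped. Besides Esam, which encodes an adhesion molecule of endothelial junctions, the other 7 endothelial genes each had their highest CPM in KO 2. The sum of all 8 genes was 8.41, 13.7, 11.2 and 11.4 CPM across the controls and 9.78, 24.6 and 15.8 in KO, a KO mean of 1.5 times the control mean. Without Esam, left out after its values were seen, the sum was 4.72, 8.16, 5.50 and 5.89 CPM in the controls and 5.22, 20.8 and 9.42 in KO, a ratio of 1.95. KO 1 lay within the range of the controls in both sums. None of the 8 genes was called by DESeq2 or edgeR, and 2 (Cdh5 and Egfl7) had an unadjusted p under 0.05 in DESeq2 and 1 (Egfl7) in edgeR.

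The endothelial receptors followed KO 2. Kdr, the main signalling receptor for Vegfa, had normalized counts of 70.3, 101, 52.3 and 82.4 in the controls and of 27.4, 244 and 96.3 in the KO libraries. KO 1 was the lowest and KO 2 the highest of the 7 libraries. The log2 fold change was 0.67 (SE 0.62, adjusted p 0.876 in DESeq2), and it was -0.31 without KO 2. Flt1, the second Vegfa receptor and a decoy for the ligand, had 40.8, 132, 68.0 and 42.6 in controls and 41.1, 223 and 88.9 in KO, a log2 fold change of 0.73 (SE 0.62), or -0.12 without KO 2. Tie1, a receptor that partners with the angiopoietin receptor Tek, had 0 counts in KO 1 and a normalized count of 68.2 in KO 2, with 5.23 to 27.2 in controls. Its log2 fold change was 0.82 (SE 1.18), and -0.54 without KO 2.

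The structural and secreted endothelial genes showed the same library pattern with 2 variations. Plvap, which forms the diaphragms of capillary fenestrae, had normalized counts of 52.2, 73.1, 96.7 and 60 in controls and 31.3, 306 and 97.8 in KO (log2 fold change 1.04, SE 0.63, and -0.12 without KO 2). Cdh5, the cadherin of endothelial junctions, had 25, 14.2, 15.7 and 5.78 in controls and 17.6, 93.0 and 28.2 in KO (log2 fold change 1.62, SE 0.80, adjusted p 0.383, and 0.60 without KO 2). Pecam1, an adhesion molecule of endothelium that leukocytes and platelets also carry, ranged from 15.9 to 60.7 in controls and from 35.2 to 70.2 in KO (log2 fold change 0.37, SE 0.58). Egfl7, a secreted vascular protein, had 31.8, 96.7, 39.2 and 36.9 in controls and 128, 150 and 68.9 in KO. Here KO 1 was high as well, and control 2 alone reached into the KO range. Its log2 fold change was 1.18 (SE 0.52, adjusted p 0.26 by DESeq2, 0.432 by edgeR), and without control 2 it was 1.68 with a DESeq2 adjusted p of 0.0195. Of the 7 fits with 1 library left out, this was the only 1 that called Egfl7. Leaving out the only overlapping control separates the groups in advance, so this call is no added support. Esam differed from the rest of its class: it had the highest level per length of the 8 genes, 1.75 CPM per kilobase against 0.0863 to 0.942, and took 37.4% of the class's counts (95% Wilson interval 36.1% to 38.7%, counting error only), from 15.3% in KO 2 to 51.1% by library. Its normalized counts were 205, 316, 341 and 291 in controls and 245, 209 and 310 in KO, and KO 2 was among the lowest (log2 fold change -0.18, SE 0.26, 95% interval -0.69 to 0.34).

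Of 16 further endothelial genes, 15 had a count, 8 had an adjusted p in DESeq2 and 0 were called by DESeq2 or edgeR, with 1 and 0 at an unadjusted p under 0.05. KO 2 was the highest library by CPM for 7 of the 16. Vwf, the clotting factor stored in endothelial granules and the most abundant of these 16, had normalized counts of 34.0, 123, 65.4 and 65.0 in controls and 133, 160 and 102 in KO (log2 fold change 0.88, SE 0.46, adjusted p 0.444). The sum of the 16 was 4.64 to 8.05 CPM in controls and 7.25, 13.3 and 9.64 in the KO libraries.

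The ligands of the markers' receptors were counted next, since endocrine cells make some of them. Of 10 ligand genes, 1 was called by DESeq2, in the direction of lower expression, and 0 were called by edgeR. Of all genes tested, DESeq2 called 4.51%, with 2.27% as lower, and edgeR called 1.05%. The ligand called was Pgf, the placental growth factor, a ligand of Flt1. Its normalized counts were 1284, 1172, 1296 and 1012 across the controls and 803, 418 and 446 in the KO libraries. Every KO library lay below every control, and groups did not overlap for 12.0% of all genes with an adjusted p. Pgf fell by 1.10 on the log2 scale (SE 0.24, adjusted p 0.000249 by DESeq2, 0.0736 by edgeR), and DESeq2 called it whichever of the 7 libraries was left out, with log2 fold changes of -1.46 to -0.93. Its level per length was 7.28 CPM per kilobase in controls and 3.64 in KO, above every marker but C1qa.

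Vegfa had the highest level of the ligands, 98.6 CPM per kilobase in controls and 99.3 in KO. Its normalized counts were 22801, 23287, 25374 and 23516 in controls and 22734, 22320 and 21862 in KO, a log2 fold change of -0.09 (SE 0.08, 95% interval -0.25 to 0.07). Scaled to library totals it was 0.01. Vegfb, another Flt1 ligand, followed with 14.7 and 14.6 CPM per kilobase (log2 fold change -0.11, SE 0.14). Vegfc, the lymphatic growth factor, had 1.56 and 1.58 (log2 fold change -0.07, SE 0.27). The angiopoietins Angpt1 and Angpt2, ligands of Tek, had log2 fold changes of 0.39 (SE 0.61) and -0.13 (SE 0.44). Csf1 and Il34, the ligands of the macrophage receptor Csf1r, had log2 fold changes of 0.13 (SE 0.26) and -0.82 (SE 0.95), and Pdgfb and Pdgfd, the ligands of the pericyte receptor Pdgfrb, had 0.38 (SE 0.56) and 0.69 (SE 0.46). These 9 ligands had adjusted p-values of 0.683 or above in DESeq2.

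Leukocyte markers split into 3 patterns: C1qa was abundant and fell in KO, the class II antigen presentation genes Cd74 and H2-Aa had their lowest values in control 4 and were not called, and the remaining 7 genes each had at most 66 counts in any library. C1qa, C1qb and C1qc encode the 3 chains of C1q, the first component of the classical complement pathway, which macrophages assemble from equal parts. The genes lie side by side on the minus strand of chromosome 4 in GRCm38, C1qb at 136880129 to 136886187, C1qc at 136889804 to 136893065 and C1qa at 136895917 to 136898803, and no other gene overlaps them.

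The 3 chains were counted very unequally. C1qa had 824, 685, 998 and 1187 counts across the controls and 604, 634 and 560 in the KO libraries. C1qb and C1qc together had 2, 6, 34 and 2 counts in the same controls and 40, 24 and 108 in the same KO libraries. The ratio of C1qa to the sum of the other chains was thus 594 in control 4 and 5.19 in the unnumbered KO library, with 15.1 to 412 in the others. Per length, C1qa stood at 16.6 CPM per kilobase in controls and 10.1 in KO, C1qb at 0.109 and 0.456, and C1qc at 0.0601 and 0.232. C1qa took 71.7% of the counts of the 10 leukocyte genes over all libraries (95% Wilson interval 70.7% to 72.7%, counting error only), from 44.9% in the unnumbered KO library to 93.3% in control 4. The pan-leukocyte gene Ptprc and the macrophage genes Adgre1 and Tyrobp, in the same libraries, had at most 42, 28 and 16 counts.

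C1qa was lower in KO. Its normalized counts were 935, 808, 1305 and 858 across the controls and 591, 655 and 415 in the KO libraries, with no overlap. C1qa fell by 0.82 on the log2 scale (SE 0.23, adjusted p 0.0113 by DESeq2, 0.14 by edgeR), to 56.7% of the control mean. DESeq2 called it when leaving out 4 of the 7 libraries in turn. The adjusted p was 0.0871 without control 3, 0.0635 without KO 1 and 0.106 when the unnumbered KO library was left out, and the log2 fold change lay between -0.96 and -0.65. C1qb and C1qc had log2 fold changes of 1.86 (SE 1.48) and 1.79 (SE 1.30) and no adjusted p in DESeq2, where their counts were too low (0.756 and 0.711 in edgeR). C1qb had normalized counts of 0, 7.08, 20.9 and 0 in controls and 17.6, 8.26 and 48.9 in KO. C1qc had 2.27, 0, 23.5 and 1.45 in controls and 21.5, 16.5 and 31.1 in KO. Without control 3, the only control within the KO range, its log2 fold change was 4.19 with a DESeq2 adjusted p of 0.041. Of the 7 fits with 1 library left out, this was the only 1 that called C1qc. The controls left had 2, 0 and 2 counts, and the groups were separated in advance, so this call is no added support.

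**Figure D3:**
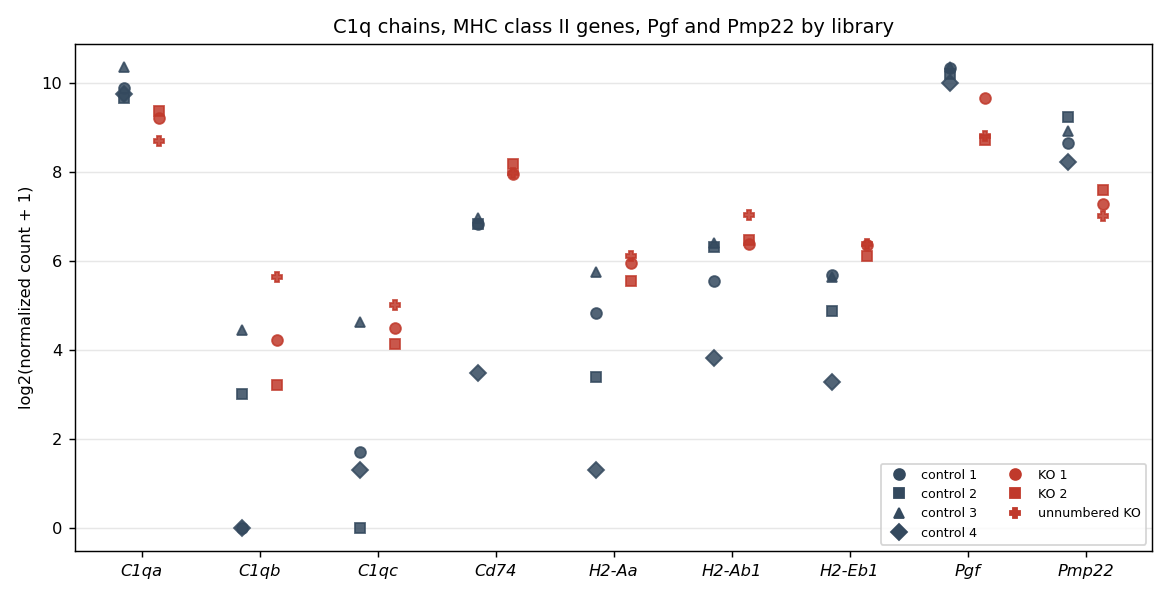
Normalized counts on a log2(value + 1) scale (y axis) of the 3 C1q chains, 4 class II antigen presentation genes, Pgf and Pmp22 (x axis), with 1 symbol per library. All KO symbols lie below all control symbols for C1qa, Pgf and Pmp22 and above them for Cd74 and H2-Eb1, and control 4 is the lowest symbol for each of the 4 class II genes.

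None of the 4 class II genes measured (Cd74, H2-Aa, H2-Ab1 and H2-Eb1) was called by DESeq2 or edgeR with all 7 libraries, and control 4 was the lowest library for each. Cd74, the invariant chain that escorts class II molecules, had normalized counts of 113, 112, 123 and 10.1 across the controls and 247, 287 and 250 in the KO libraries. Every KO library lay above every control, and control 4 lay far below the other controls, in raw terms with 14 counts against 94 to 100. The log2 fold change of 1.55 (SE 0.60) did not pass the threshold in DESeq2 (adjusted p 0.139) or edgeR (adjusted p 0.418). Without control 4 it was 1.17 by DESeq2 (adjusted p 0.000355) and 1.18 by edgeR (adjusted p 0.0429), where 5.28% and 1.34% of all genes were called. The call of Cd74 thus turned on control 4, and its direction did not.

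H2-Aa, which encodes a class II alpha chain, had normalized counts of 27.2, 9.44, 52.3 and 1.45 in controls and 60.6, 45.4 and 68.2 in KO. Control 3 lay within the KO range, and the log2 fold change was 1.38 (SE 0.90, adjusted p 0.656). H2-Ab1 and H2-Eb1, the beta chain genes from the list of further myeloid genes, had log2 fold changes of 0.87 (SE 0.60, adjusted p 0.702) and 1.19 (SE 0.61, adjusted p 0.413). H2-Ab1 had 45.4, 77.8, 83.7 and 13.0 in controls and 82.1, 86.8 and 130 in KO, and control 3 lay above KO 1. H2-Eb1 had 49.9, 28.3, 48.4 and 8.67 in controls and 80.2, 68.2 and 81.5 in KO, without overlap. Without control 4, the lowest library for all 3 genes, the DESeq2 log2 fold changes were 0.98 for H2-Aa, 0.54 for H2-Ab1 and 0.86 for H2-Eb1 (adjusted p 0.508, 0.639 and 0.365). Cd74, H2-Aa, H2-Ab1 and H2-Eb1 were also summed, a set put together after the values were seen. The sum was 4.24, 3.96, 5.17 and 0.635 CPM in controls and 8.74, 8.79 and 11.0 in KO. The KO mean was 2.71 times the control mean and 2.13 times the mean of controls 1 to 3. In normalized counts the sums were 236, 228, 307 and 33.2 in controls and 470, 487 and 530 in KO, a somewhat smaller ratio. None of the 4 genes has an exon under an annotated opposite-strand exon. Whether the counting of control 4 affected its low values was not tested.

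The promoters of class II genes carry a conserved pair of elements, the X box and, downstream of it, the Y box, an inverted CCAAT box bound by the factor NF-Y. NF-Y is also known to bind the CCAAT box of the type I collagen gene Col1a2, which is among the stromal markers. The sequences below show these windows for 2 class II genes and Col1a2, from 250 bases before to 50 bases after the RefSeq start, 5′ to 3′ on the gene's strand, in GRCm38.p6. They lie at chr17:34287774-34288073 (minus strand) for H2-Aa, chr17:34305617-34305916 (plus strand) for H2-Eb1 and chr6:4505368-4505667 (plus strand) for Col1a2. Capitals mark ATTGG and its complement CCAAT, and in the class II genes also GCAAC, the core of the X box.
H2-Aa: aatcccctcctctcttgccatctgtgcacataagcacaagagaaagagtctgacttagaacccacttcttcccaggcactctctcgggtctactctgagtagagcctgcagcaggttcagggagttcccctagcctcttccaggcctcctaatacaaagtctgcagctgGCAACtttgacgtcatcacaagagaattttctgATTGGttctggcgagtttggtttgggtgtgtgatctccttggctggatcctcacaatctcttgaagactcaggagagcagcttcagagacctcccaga
H2-Eb1: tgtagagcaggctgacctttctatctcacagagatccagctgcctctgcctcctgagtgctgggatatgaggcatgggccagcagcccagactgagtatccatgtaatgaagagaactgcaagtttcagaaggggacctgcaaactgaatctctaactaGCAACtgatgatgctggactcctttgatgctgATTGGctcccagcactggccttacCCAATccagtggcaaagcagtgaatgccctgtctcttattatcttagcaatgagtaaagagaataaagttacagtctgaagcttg
Col1a2: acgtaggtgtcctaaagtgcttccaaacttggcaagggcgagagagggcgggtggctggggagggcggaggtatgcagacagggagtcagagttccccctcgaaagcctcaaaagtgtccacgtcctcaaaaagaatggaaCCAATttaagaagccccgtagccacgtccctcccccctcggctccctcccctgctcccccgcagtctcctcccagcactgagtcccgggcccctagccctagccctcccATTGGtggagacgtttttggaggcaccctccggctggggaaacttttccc
In H2-Aa the start of GCAAC lies 33 bases before that of ATTGG, and in H2-Eb1 32 bases before it. Over 32851 such windows of all genes, ATTGG was found on either strand in 37.4%, and GCAAC followed by ATTGG at 28 to 36 bases, on either strand, in 0.429%. Windows were at hand for 13 of the 28 markers, 16 windows in all, and 3 of these held ATTGG. A match describes letters only and says nothing of binding in these cells.

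The other leukocyte markers were sparse. Csf1r, the receptor for Csf1 that macrophages need, had normalized counts of 46.5, 44.8, 34.0 and 41.2 in controls and 58.7, 14.5 and 32.6 in KO (log2 fold change -0.24, SE 0.59, adjusted p 0.998). Part of its exon length lies under Hmgxb3 on the opposite strand, so its counts are uncertain. Lyz2, the lysozyme of myeloid cells, had 0 counts in controls 1 and 4 and normalized counts of 9.44 to 28.8 in every other library. Ptprc, the CD45 phosphatase of all leukocytes, had 0 counts in controls 1 and 2 and its highest normalized count, 31.1, in the unnumbered KO library. The macrophage receptor Adgre1 (20.7) and the signalling adaptor Tyrobp (11.9) were also highest in that library. Log2 fold changes were 1.30 (SE 1.69) for Ptprc, 2.72 (SE 1.78) for Adgre1, 1.15 (SE 1.30) for Tyrobp and 0.53 (SE 1.55) for Lyz2, and DESeq2 gave none of the 4 an adjusted p. With 1 library left out they ranged from 0.05 (without the unnumbered KO library) to 3.78 (without control 3) for Ptprc, from 1.18 to 3.50 for Adgre1, from 0.58 to 1.58 for Tyrobp and from 0.11 to 2.15 for Lyz2. Summed with Csf1r, C1qb and C1qc, these genes took 0.952 to 2.2 CPM in controls and 2.25, 1.27 and 3.95 in the KO libraries. By CPM, the unnumbered KO library was the highest of the 7 for 6 of the 10 leukocyte markers, where for 7 of the 8 endothelial markers it was KO 2.

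Of 15 further myeloid genes, 7 had an adjusted p in DESeq2 and 0 were called by DESeq2 or edgeR, with 2 by each at an unadjusted p under 0.05. Their sum was 3.99, 4.06, 4.95 and 3.82 CPM across the controls and 7.45, 6.44 and 11.5 in the KO libraries. Without H2-Ab1 and H2-Eb1 the sum was 2.22 to 3.41 in controls and 3.65 to 7.09 in KO. By CPM, the unnumbered KO library was the highest for 9 of the 15. Of 12 lymphocyte genes, 2 had an adjusted p and 0 were called by either tool, with 0 at an unadjusted p under 0.05 in both. Nkg7 had 0 counts in all 7 libraries, and Cd3e, Cd3d, Cd4 and Cd8a had at most 8, 4, 4 and 3. Cd79a, a B cell receptor chain and the most abundant of this list, had normalized counts of 102, 166, 96.7 and 41.9 in controls and 225, 88.8 and 89.6 in KO (log2 fold change 0.41, SE 0.52, adjusted p 0.965). Of 7 red cell and platelet genes, DESeq2 gave an adjusted p for 0 and edgeR tested 1 and called 0. The most abundant of these was Alas2, the haem synthesis enzyme of red cells, with 401 counts in control 4 and at most 20 in every other library. The globin gene Hba-a1 had 17 counts in control 4, 26 in KO 2 and 0 in the other libraries, and 15.5% of the exon length of Alas2 lies under exons of the opposite strand, so its value is uncertain.

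**Figure D4:**
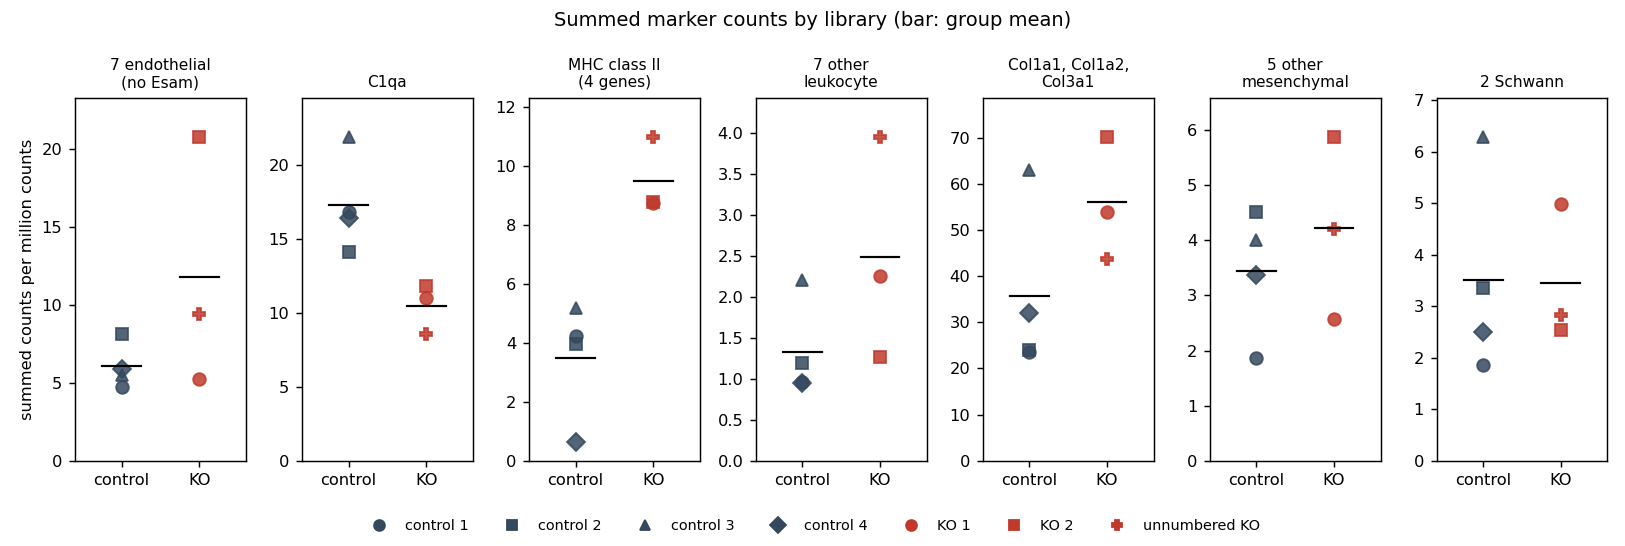
Summed CPM (y axes, from 0, a separate scale in each panel) for 7 groups of markers in control and KO libraries (x axes), with 1 symbol per library and a bar at the group mean. The subsets of each class were chosen after their values were seen; KO 2 stands alone for the 7 endothelial genes without Esam at 20.8, the groups separate for C1qa and the class II genes, and control 3 lies with the KO libraries for the collagens at 62.9.

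Mesenchymal markers were carried by the fibrillar collagens, which had higher values in the KO libraries and in control 3 than in the other controls. Col1a1 and Col1a2, the chains of type I collagen, and Col3a1, of type III collagen, took 92.1% of the counts of the 8 genes (95% Wilson interval 91.7% to 92.5%, counting error only), and 84.2% to 95.4% by library. Summed, they made 23.6, 24.0, 62.9 and 32.1 CPM across the controls and 54.0, 70.2 and 43.8 in KO. Col1a2 had normalized counts of 719, 905, 1977 and 1124 in controls and 1757, 2254 and 1299 in KO. Control 3 was higher than 2 of the 3 KO libraries, so the groups overlapped, and the log2 fold change was 0.58 (SE 0.31, adjusted p 0.444 by DESeq2, 0.627 by edgeR). Col3a1 had 363, 310, 865 and 340 in controls and 629, 944 and 522 in KO (log2 fold change 0.57, SE 0.36, adjusted p 0.63). Col1a1 had 231, 167, 899 and 215 in controls and 518, 696 and 298 in KO (log2 fold change 0.41, SE 0.71, adjusted p 0.984).

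Without control 3 all 3 collagen genes were called by DESeq2 as higher in KO, with log2 fold changes of 0.95 for Col1a2, 1.05 for Col3a1 and 1.30 for Col1a1 and adjusted p-values of 0.00558, 0.00483 and 0.00743, where 1.45% of all genes were called as higher. With any other library left out none of the 3 was called. For each of the 3, control 3 was the only control above the lowest KO library. Leaving it out separates the groups in advance, so these calls are no added support. The acinar sums were 81.2, 5.11, 238 and 4.47 CPM in the controls and 137, 38.3 and 25.2 in KO. Control 3 was the highest control for both the acinar and the collagen sum. Among KO libraries, KO 1 had the highest acinar sum and KO 2 the highest collagen sum. Control 1 had the lowest collagen sum and an acinar sum above those of controls 2 and 4. The part of acinar tissue carried into the sort in the collagen values was not tested.

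The other 5 mesenchymal genes were low, with a sum of 1.87 to 4.51 CPM in controls and 2.58 to 5.88 in KO. Pdgfrb, the receptor that pericytes use to respond to Pdgfb, had normalized counts of 13.6, 68.4, 23.5 and 44.8 in controls and 48.9, 62.0 and 37.0 in KO (log2 fold change 0.39, SE 0.64). Rgs5, a regulator of G protein signalling that marks pericytes, had 59.0, 175, 128 and 88.2 in controls and 60.6, 217 and 148 in KO (log2 fold change 0.34, SE 0.50). KO 2, the highest library for the endothelial genes, was also the highest for Rgs5. Acta2, the smooth muscle actin, had 11.8 to 34.7 in controls and 1.96 to 28.9 in KO (log2 fold change -0.84, SE 0.96). The small proteoglycans Dcn and Lum of fibroblast matrix had at most 22 and 18 counts, with log2 fold changes of 0.11 (SE 0.97) and -1.08 (SE 1.93). Of these, Pdgfrb, Rgs5 and Acta2 had adjusted p-values of 0.945 or above in DESeq2, and Dcn and Lum received none.

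Of 17 further mesenchymal genes, 12 had an adjusted p in DESeq2 and 0 were called by DESeq2 or edgeR, with 1 and 0 at an unadjusted p under 0.05. Sparc, a collagen-binding matrix protein and the most abundant of them, had normalized counts of 865, 918, 1339 and 348 in controls and 1316, 1056 and 848 in KO (log2 fold change 0.31, SE 0.34, adjusted p 0.941). Their sum was 29.5, 34.0, 51.3 and 25.1 CPM across the controls and 49.3, 48.9 and 35.6 in KO, so that control 3 was again the highest control.

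The Schwann cell markers gave no difference that exceeded the spread of the libraries. Sox10, the transcription factor that defines the glial lineage, had normalized counts of 45.4, 84.9, 214 and 65.8 in controls and 113, 82.6 and 60.7 in KO (log2 fold change -0.26, SE 0.55, 95% interval -1.34 to 0.82). Cdh19, a cadherin of Schwann cell precursors, had 57.9, 109, 159 and 65.0 in controls and 154, 57.8 and 75.6 in KO (log2 fold change -0.02, SE 0.51, 95% interval -1.01 to 0.97). Both genes were detected in all 7 libraries and were highest in control 3 by normalized counts. These intervals leave room for changes of about 1 log2 unit in either direction.

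Of 12 further Schwann and glial genes, all had an adjusted p in DESeq2. DESeq2 and edgeR each called 1 of them, as lower, with 2 by each at an unadjusted p under 0.05. Of all genes tested, DESeq2 called 2.27% as lower and edgeR called 1.05%. The gene called was Pmp22, a membrane protein of compact myelin that many epithelial cells also express. Its normalized counts were 402, 603, 478 and 295 in controls and 153, 192 and 127 in KO, with every KO library below every control. Pmp22 fell by 1.5 on the log2 scale (SE 0.29, adjusted p 2.5e-05 by DESeq2, 0.0448 by edgeR), to 35.4% of the control mean, and DESeq2 called it whichever of the 7 libraries was left out. It stood at 3.33 CPM per kilobase in controls and 1.27 in KO, above Sox10 at 0.586 and 0.530. S100b, a calcium-binding protein of glia and the second gene under that unadjusted p, was chosen after its values were seen. It had normalized counts of 18.2, 63.7, 20.9 and 44.8 in controls and 15.6, 14.5 and 2.96 in KO, without overlap (log2 fold change -1.76, SE 0.81, adjusted p 0.301). Mbp, the myelin basic protein and the most abundant gene of this list, had 3040 to 3716 normalized counts in controls and 3007 to 3977 in KO (log2 fold change 0.01, SE 0.13, adjusted p 0.999). Mbp stood at 7.18 CPM per kilobase in controls and 7.74 in KO, also above Sox10, and which cells its RNA came from was not tested.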

How the data were processed

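The authors deposited whole-number counts per gene for 7 libraries. The submitters' processing notes list FastQC, STAR, featureCounts and DESeq2 and the build mm10, without versions, and the strand setting is not given in the sources used here. Of the counts between 1 and 10, 84.4% to 88.9% per library were even, so that 2 counts may stand for 1 read pair and counting intervals are too narrow. Column names were matched to sample titles, and 1 KO column matched its group only.

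KO was compared with control in DESeq2 1.42.0 (R 4.3.3; Wald test, default filters, no covariate), as the series' design text states, over all genes, with a threshold of 0.05 on the Benjamini-Hochberg adjusted p. The alternatives were edgeR 4.0.16 (quasi-likelihood test), other filters and size factors, a replicate block and leaving out libraries. Both tools were tested on simulated data. Normalized counts are counts divided by DESeq2 size factors. Levels per length use exon lengths of GENCODE M21 (GRCm38), whose identifiers match all 55536 genes, and CPM sums use library totals. Scaling to library totals shifted the median fold change of all genes upward, so KO to control ratios of CPM lie somewhat above those of normalized counts. Promoter windows are RefSeq's. The members and lists were chosen with earlier results of these data known. All members and ligands are named, and of other lists the genes called and the most abundant. Genes named beyond this were chosen after their values were seen.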

Additional observations from a re-analysis of the deposited data

Results flagged for a closer look

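There were 44 results with 4 control values (the 28 markers, 10 ligands, Nkx2-2, Pmp22 and the 4 class sums). In 9 of them 1 control lay far from the rest (Dixon's ratio above its 95% critical value). Independent values from a normal distribution would give about 2.2. Some of these counts were at or near 0 and the class sums contain the markers, so 2.2 may be too low. Control 3 stood high for 5 markers: Col1a1 with 899 normalized counts against 167 to 231 in the other controls, Col3a1 with 865 against 310 to 363, C1qc with 23.5 against 0 to 2.27, Lum with 23.5 against 0 to 2.36, and Ptprc with 20.9 against 0 to 2.89. Control 2 stood high for Egfl7, with 96.7 against 31.8 to 39.2. Control 4 stood low for Cd74, with 10.1 normalized counts against 112 to 123, and high for the ligands Angpt2, with 294 against 110 to 139, and Il34, with 60 against 11.3 to 16.5. The KO group of 3 libraries was not tested.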

How the results depend on the processing

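The KO to control ratios of the 4 class sums depended in part on the libraries used. The mesenchymal ratio was 1.54 over all 7 libraries. Its sum was 25.5 and 28.6 CPM in controls 1 and 2, and 56.6 and 76.1 in KO 1 and KO 2, a larger ratio. Of 670 gene values under alternatives, 590 kept their direction and their side of the threshold. A further 15 passed it newly, 21 no longer passed it and 44 changed sign. edgeR called 203 genes and 0 markers, 329 genes and 0 markers without its filter on low counts, and 249 genes on 6 libraries without control 4, where Dcn was at -0.06, Angpt2 at 0.32 and Il34 at 0.03 (log2 fold changes, as below). Library totals as size factors moved the median of all genes to 0.112 and gave 684 of 981 calls as higher, against 394 of 792, with Cdh19 at 0.10, Vegfa at 0.01 and Vegfc at 0.02. Leaving out 1 library gave 430 to 910 genes and 0 to 4 markers. Over these 7 fits the range was -0.25 to 0.73 for Dcn, -0.55 to 0.32 for Cdh19, -0.21 to 0.09 for Vegfc, -1.78 to 1.13 for Lum, -0.52 to 0.39 for Sox10, -0.50 to 0.31 for Angpt2, -1.99 to 0.02 for Il34, -0.01 to 0.29 for Csf1, -0.06 to 0.65 for Pdgfb, -0.31 to 1.14 for Kdr, -0.12 to 1.52 for Plvap, -0.12 to 1.22 for Flt1, -0.54 to 1.40 for Tie1, -0.82 to 0.13 for Csf1r and -0.11 to 0.70 for Rgs5. The replicate numbers 1 and 2 are shared by controls and KO, and same-numbered libraries deviated together (r = 0.29 and 0.283 over 12766 genes), but 2 pairs do not show that the numbers mean more than names. With the replicate block on these 4 libraries 3 markers were called. The share of all genes called in that fit is not given here, so this count has no background and is not read as a result. In the same fit Tie1 was at -2.62, Tyrobp at -0.17, Lum at 1.09, Sox10 at 0.63, Cdh19 at 0.26 and Angpt2 at 0.47. On the same 4 libraries unpaired, Lum was at 1.11, Acta2 at 0.28, Sox10 at 0.59, Cdh19 at 0.35, Angpt2 at 0.50 and Il34 at 0.35. Another alternative, chosen after seeing the data, used 5 libraries, without control 4 and the unnumbered KO library. There Ptprc was at -0.18, Vegfc at 0.02, Angpt2 at 0.55 and Il34 at 0.29. The cause of these changes was not tested. Depth limits the 15 markers under 100 counts in every library, whose SEs reach 1.93 on the log2 scale (Lum).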
